A study of Mus musculus with 24 samples.

Results

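Intergenic non-coding RNA was followed with the probes of a mouse array that carry no gene name and are called instead by a genomic interval and a strand, as in chr16:23543837-23560153_F. All probes of that form on chromosomes 1 to 19 were taken, which gave 4275 probes of the 56605 that are not controls, and 4269 of 56488 were left after spots marked as outliers were removed. They stand for 3090 intervals, read on strand F for 2140 probes and on strand R for 2129, and 809 intervals have probes on both strands. The intervals are 62 to 538251 bases long, with a median of 7327, in coordinates of the mouse build mm9 that the array design names. No annotation of that build was used here, so an interval is described by its name and its signal alone.

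Long intergenic non-coding RNAs are transcribed from DNA between protein-coding genes, often capped, spliced and polyadenylated like messenger RNA but without a protein product. As a class they are usually less abundant than messenger RNA and more restricted to particular cell types. Some are known to act on chromatin or on neighbouring genes, and for most intervals of this kind no function is known.

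Total RNA was measured in mouse melanoma and myeloid cell lines of a study on tumour cells that persist for a long time in a dormant state. B16F1-GFP-M (M) is the parental melanoma line marked with green fluorescent protein, B16F1-GFP-D (D) was isolated from mice after about a year of dormancy under immunotherapy, and B16F1-GFP-DB#1, DB#2 and DB#3 are lines of a next generation, recovered from the brain. The M0 and J365 lines are given by the labels only as myeloid cells, and the suffix of their sample names is not explained. There were 3 arrays of M, 4 of D, 4 of DB#1, 3 of DB#2, 3 of DB#3, 4 of M0 and 3 of J365. Each line is 1 line amplified in culture, so a difference between lines belongs to those lines. Nothing in the labels says that arrays of a line came from separate cultures, and p-values therefore measure the spread between arrays, which may be technical.

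Each value is the log2 intensity of a probe less the 75th percentile of its array, and a probe is called read where the scanner software marked it as well above background. D replicate 3 stands apart, with 89.9% of all probes read against 43.6% to 53.8% on the other 23 arrays. It was left out of the main fit and entered only as an alternative. Its values are given separately. The 10 melanocyte markers were read on all 17 melanoma arrays and 3 to 4 of them on the myeloid arrays. Of 12 blood markers, 11 were read on every myeloid array and 2 to 10 on the melanoma arrays, with 10 on D replicate 3. The arrays lay on 3 slides that each held every line, and arrays of different lines on 1 slide deviated together, with a mean correlation of 0.464 across probes over 74 pairs. Slide is therefore considered beside the counts.

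The first question was how many interval probes could be read. An interval probe was read less often than a probe for a protein-coding transcript, and this held on every array. On the 16 fitted melanoma arrays 41.1% ± 4.27 (SD) of the interval probes were read, and on the 7 myeloid arrays 44.1% ± 3.00 (SD). The difference of -2.95 percentage points was within the spread of arrays (two-sided exact permutation test, p = 0.114). For the 29567 probes with a protein-coding accession the shares were 63.4% ± 1.67 and 60.9% ± 0.929, higher in melanoma (exact permutation test, p = 0.00152). These tests exchanged single arrays and took no account of line or slide. Arrays of a line are not replicates of a cell type, so the p-values do not describe the types in general.

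Shares read moved up and down with the array, so the share of interval probes was also divided by that of coding probes on the same array, a measure added after the data were seen. The ratio was 0.647 in melanoma and 0.723 in myeloid arrays (exact permutation test, p = 0.00165), by a test that again took no account of line or slide. On slides 1, 2 and 3 taken alone, the difference in the share of interval probes was -3.21 (p = 0.357), -3.31 (p = 0.0286) and -0.422 (p = 0.893) percentage points by the same exact test. The ratio gave p-values of 0.179, 0.0286 and 0.143 on those slides (exact permutation tests). Without M0 replicate 1 the difference in share was -3.87 percentage points, with p = 0.0433 (exact permutation test).

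By line, the mean share of interval probes read was 41.2% ± 2.43 (SD, n = 3) in M, 38.4% ± 8.61 (n = 3) in D, 42.4% ± 3.99 (n = 4) in DB#1 and 42.7% ± 2.64 (n = 3) in DB#2. It was 40.3% ± 2.60 (n = 3) in DB#3, 44.0% ± 4.05 (n = 4) in M0 and 44.1% ± 1.55 (n = 3) in J365. The lines overlapped. The lowest value was that of D replicate 1, with 29.0%. On D replicate 3, 91.4% of interval probes were read, 3903 in number, and 1218 of these were read on no other array.

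**Figure D1:**
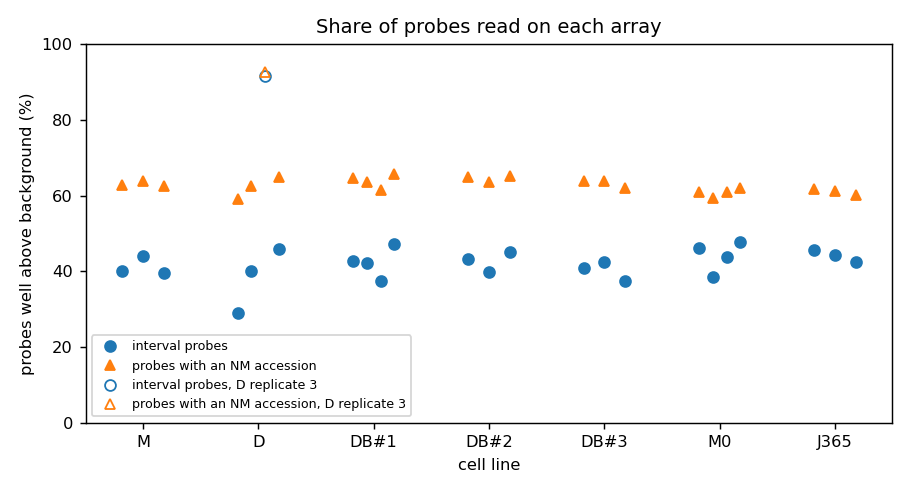
Percent of probes read (well above background) on each of the 24 arrays, grouped by line, for interval probes (circles) and for probes with a protein-coding accession (triangles), with open symbols for D replicate 3. Interval probes sit below coding probes on every array; D replicate 3, at 91.4% and 92.7%, stands apart from the other arrays.

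Over the 23 fitted arrays, 1076 interval probes (25.2%) were read on every array, 1483 (34.7%) on none and 1710 (40.1%) on some. Among coding probes the corresponding shares were 50.1%, 22.7% and 27.2%. Longer intervals were read more often. From the shortest to the longest of 4 length classes, 14.8%, 24.2%, 26.6% and 31.1% of probes were read on every array, and 45.0%, 31.7%, 33.3% and 32.0% on none. This is a description across probes, which differ in sequence and are not replicates.

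Reading separated the cell types at a small number of intervals. There were 33 members read on every melanoma and on no myeloid array, and 47 read on every myeloid and on no melanoma array. These were 0.773% and 1.10% of the interval probes. Of coding probes 1418 (4.80%) were read on every melanoma and no myeloid array and 673 (2.28%) the other way round. Members read throughout a single line and nowhere in the other lines numbered 3 in M0 and 2 in J365, and no melanoma line had one (0 members). All 5 were read on D replicate 3. No such count over coding probes is given here, so these numbers describe the 5 members and not interval probes in general. The M0 members lay near the floor, with bounds of 1.38-fold to 1.83-fold over the next line. The J365 pair is described below with the comparison of the myeloid lines.

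Because strands have probes of their own, an interval can be read on either strand or both. Here a strand counts as read in a line if at least 1 of its probes was read on every fitted array of that line. Strands read on only some arrays count as not read, so the numbers for 1 strand alone and for neither include them. In M, 174 of the 809 intervals with probes on both strands were read on F alone, 186 on R alone, 163 on both and 286 on neither. The corresponding numbers were 161, 169, 120 and 359 in D, where D replicate 1 read the fewest. They were 168, 185, 163 and 293 in DB#1, 167, 183, 177 and 282 in DB#2, and 171, 187, 159 and 292 in DB#3. In M0 they were 170, 198, 172 and 269, and in J365 177, 196, 184 and 252. Among intervals read on at least 1 strand by this rule, the share read on 1 strand was 66.4% to 73.3% over the lines. By the same rule, 5 of the 809 intervals were read on F alone in 1 line and on R alone in another.

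**Figure D2:**
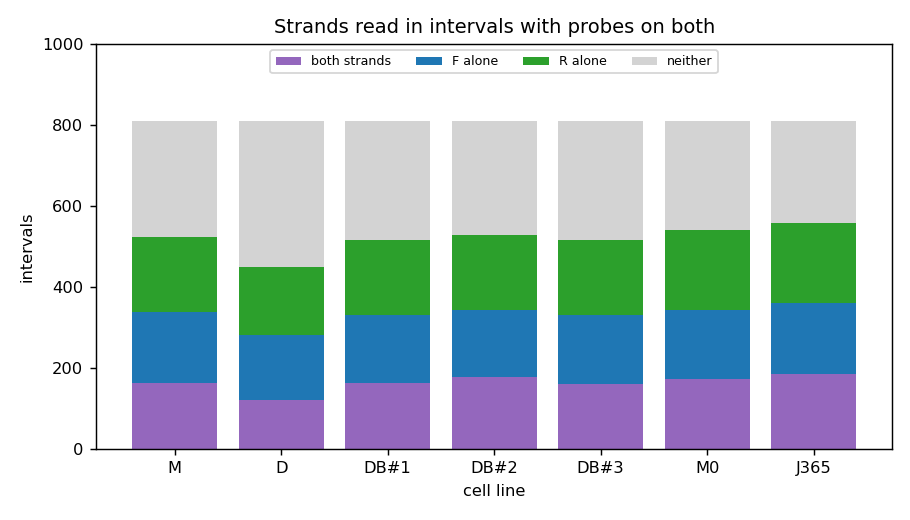
Stacked bars give the number of the 809 intervals with probes on both strands that were read on strand F alone, R alone, both or neither in each of the 7 lines, without D replicate 3. A strand counts as read if at least 1 of its probes was read on every fitted array of the line. Most intervals read by this rule were read on 1 strand alone, in every line.

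The next question was how interval probes differed between melanoma lines. A probe entered a comparison if no fitted array of at least 1 compared line failed to read it, and was called at an adjusted p under 0.05 (limma with Benjamini-Hochberg adjustment over all probes tested). The median difference of D from M was -0.23 over the interval probes and 0.03 over all probes on the log2 scale, and -0.09 over the interval probes without D replicate 1, the array with the lowest share read. Of 1492 interval probes tested in D against M, 20 were called, 17 higher and 3 lower in D. That was 1.34% of them, against 2.53% of all probes tested (1.33% higher, 1.2% lower) and 3.09% of coding probes. With slide as a block 36 were called.

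In DB#1 against M, 28 of 1560 interval probes were called (18 higher, 10 lower), which was 1.79% beside a background over all probes of 4.14% (2.13% higher, 2.01% lower). DB#2 differed from M at 20 of 1579 (14 higher, 6 lower), 1.27% beside 3.78% (2.39% higher, 1.39% lower). DB#3 against M gave 19 of 1547 (14 higher, 5 lower), 1.23% beside 2.92% (1.62% higher, 1.3% lower). With slide as a block these counts were 45 and 36 in DB#1 and DB#2. The fit did not pair the same-numbered arrays of DB#1 and M, and with replicate as a block 32 were called in DB#1. On each slide taken alone all called members kept their direction in these comparisons, except 1 of the 20 in DB#2 on slide 3, and slide 2 has no fitted D array. The members were called from these same arrays, so the agreement was largely fixed in advance and is no support for the calls. The 4 comparisons share the M arrays, so their values are given side by side and not counted as independent.

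**Figure D3:**
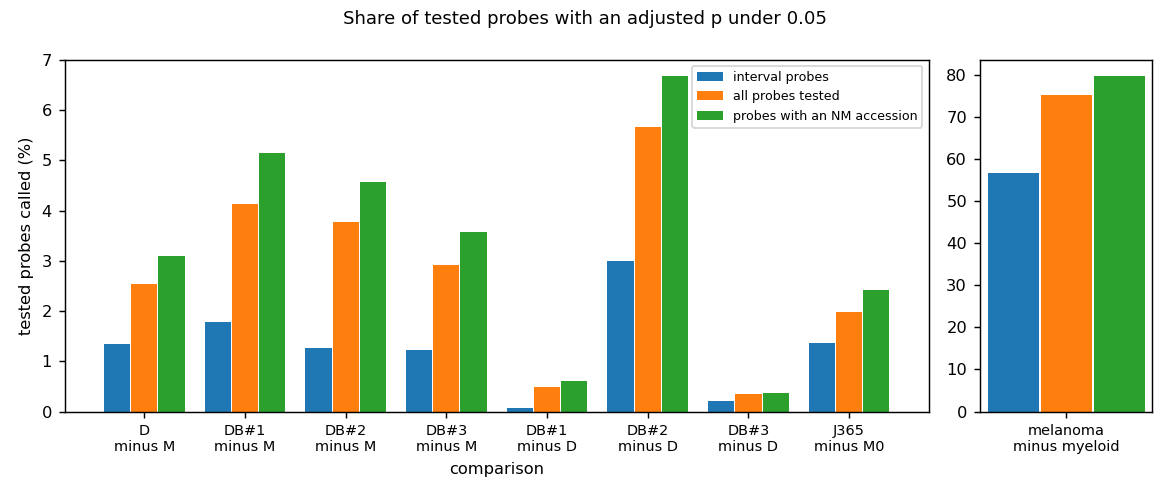
Percent of interval probes, of all probes tested and of coding probes called at an adjusted p under 0.05 in each comparison (bars, vertical axis in percent, with melanoma against myeloid on its own scale). Interval probes were called less often than coding probes in every comparison, for example 1.34% against 3.09% in D against M and 56.7% against 79.6% between the cell types.

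Of the members that changed between the melanoma lines, those at a pair of neighbouring intervals on chromosome 16 were read on every fitted array of D, DB#1 and DB#3. Of their 3 probes, 2 were read on no M array, and the other on 2 of the 3 M arrays. The probe chr16:23543837-23560153_F had values of -5.32, -6.60 and -6.13 on the M arrays, none of them read. It stood at -0.84, -1.08 and -1.20 on the D arrays, all read, and at -1.26 on D replicate 3. All D arrays lay above all M arrays. D was at least 9.55-fold higher than M (means -1.04 and -6.02, adjusted p = 5.08e-08, limma), where the bound sets D against the higher of the M signal and the lowest signal that could be read on the same array. Such a bound is used for every member that a line did not show above background. The adjusted p beside a bound is that of the fitted log2 difference. That fit used values that were not read as they stand, so the p does not test the bound.

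DB#1 gave -0.98, -2.03, -1.81 and -2.07 at the same probe and DB#3 gave -2.03, -3.03 and -2.55, again without overlap with M. DB#1 was at least 5.93-fold (adjusted p = 4.61e-08, means -1.72 and -6.02) and DB#3 at least 3.38-fold (adjusted p = 2.61e-06, mean -2.54) higher than M. DB#2 was like M in that no array was read, with values of -6.49, -5.26 and -6.53. It was at least 10.73-fold lower than D (means -6.09 and -1.04, adjusted p = 1.82e-08). No myeloid array read the probe.

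A shorter interval upstream on the same strand, chr16:23534663-23535172_F, moved the same way on both of its probes. One gave -4.29, -4.34 and -4.61 in M, not read, and -0.76, -1.53 and -1.44 in D, with -0.89 on D replicate 3. D was at least 7.98-fold higher (means -1.24 and -4.41, adjusted p = 0.000269). The other probe, which was read on M replicates 1 and 3, rose by 3.83 on the log2 scale in D (adjusted p = 1.21e-06). DB#1 and DB#3 were at least 5.20-fold and 3.84-fold higher than M at the first probe (adjusted p = 0.000652 and 0.0094), and DB#2 lay 3.93 log2 units below D (adjusted p = 9.14e-06), with 1 of its 3 arrays read.

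**Figure D4:**
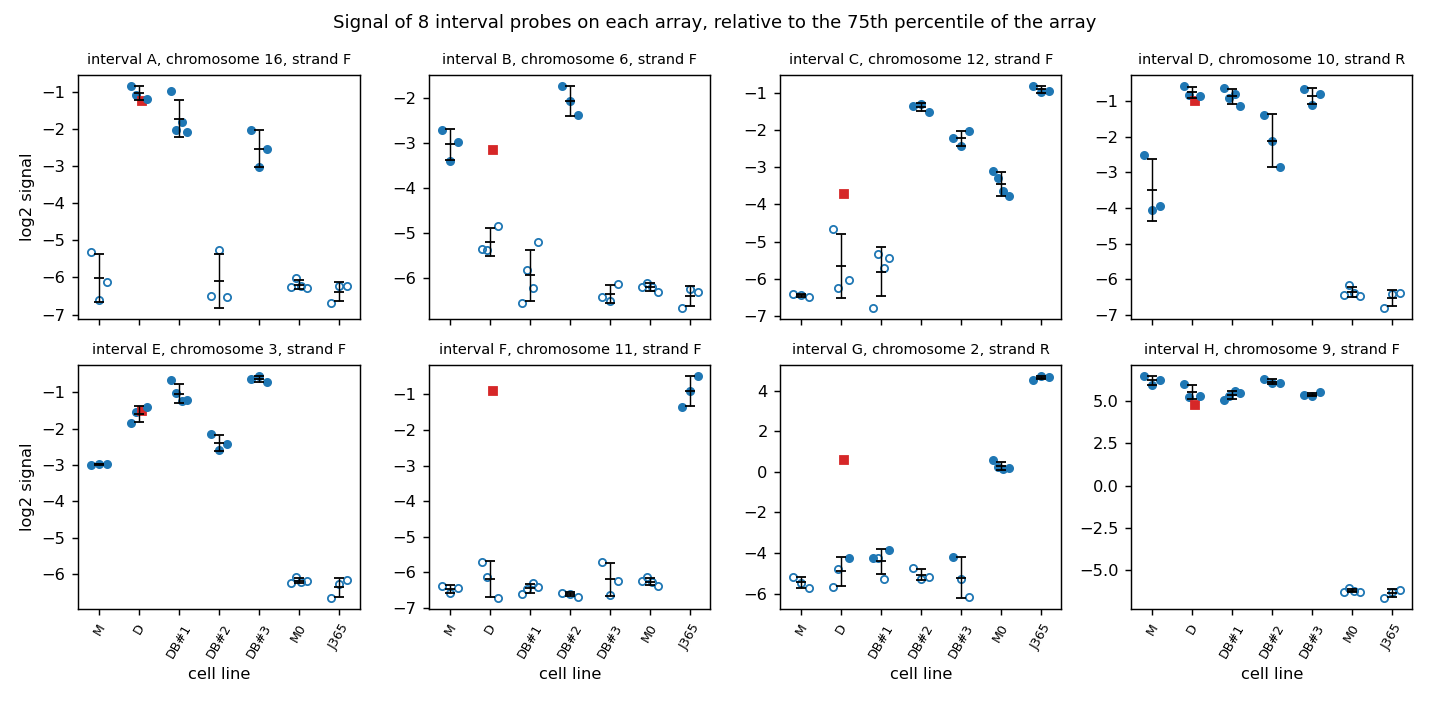
Log2 signal of 8 interval probes on every array (75th percentile of the array at 0; filled points read, open points not read, square D replicate 3, bars mean ± SD without it). Panel A is chr16:23543837-23560153_F, B chr6:40693617-40720167_F, C chr12:77550684-77551505_F, D chr10:120058696-120076196_R, E chr3:93564825-93576725_F, F chr11:97457180-97487074_F, G chr2:168136389-168136560_R and H chr9:78107225-78118850_F; in A and B the lines that were read are opposite, and DB#2 lies beside M in both.

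On chromosome 6 the probe chr6:40693617-40720167_F had the opposite pattern. It was read at -2.72, -3.39 and -2.96 in M and at -1.73, -2.08 and -2.38 in DB#2. D (-5.36, -5.37 and -4.83), DB#1 (-6.53, -5.80, -6.20 and -5.20) and DB#3 (-6.41, -6.51 and -6.13) were not read on any fitted array. D was thus at least 2.12-fold (adjusted p = 6.62e-05, means -5.19 and -3.02), DB#1 at least 2.49-fold (1.92e-07, mean -5.93) and DB#3 at least 2.40-fold (1.09e-07, mean -6.35) lower than M. DB#2 was at least 4.13-fold higher than D (adjusted p = 2.69e-07). D replicate 3 departed from the other D arrays here, with a read value of -3.16 inside the range of M.

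Another member with M and DB#2 at a similar low level was chr7:13533925-13544525_F. It gave -3.30, -3.93 and -4.42 in M, the last not read, and -3.66, -4.05 and -3.85 in DB#2. D stood at -1.46, -1.73 and -1.12, with -1.63 on replicate 3, DB#1 at 0.01, -0.26, -0.79 and -0.42, and DB#3 at -0.40, -0.71 and -1.05. The arrays of these 3 lines all lay above those of M and DB#2, which the naming rule required for D against DB#2. The differences from M were 2.45 ± 0.25 (SE) in D, 3.52 ± 0.24 in DB#1 and 3.16 ± 0.25 in DB#3, with adjusted p-values of 5.72e-06, 5.63e-09 and 8.73e-08. DB#2 differed from M by 0.03 ± 0.25 (SE), and from D by -2.42 (adjusted p = 2.95e-06). The myeloid arrays did not read it.

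Further members were read on every M array, so that their fold changes are measured on both sides. The probe chr10:120058696-120076196_R gave -2.51, -4.05 and -3.95 in M against -0.58, -0.85 and -0.86 in D and -1.02 on D replicate 3. It rose by 2.74 ± 0.34 (SE) in D, by 2.62 ± 0.32 in DB#1 and by 2.63 ± 0.34 in DB#3, with adjusted p-values of 6.03e-05, 1.86e-05 and 5.41e-05. M replicate 1 was the highest M array, and the D against M call was lost when only the arrays of these lines were fitted (adjusted p = 0.0693). DB#2, at -1.39, -2.12 and -2.86, overlapped with M, with a difference of 1.38 (adjusted p = 0.025).

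At chr3:93564825-93576725_F the M arrays agreed closely, at -3.01, -2.96 and -2.98. D lay at -1.84, -1.55 and -1.40, DB#1 at -0.68, -1.03, -1.24 and -1.22, and DB#3 at -0.64, -0.55 and -0.71. None of these lines overlapped with M, which the naming rule required for DB#1 and DB#3. The rise was 1.39 ± 0.17 (SE) in D, 1.94 ± 0.16 in DB#1 and 2.35 ± 0.17 in DB#3 (adjusted p = 5.62e-05, 9.69e-08 and 2.34e-08). DB#3 was also 0.96 ± 0.17 higher than D (adjusted p = 0.0123), a call that was lost under 7 of 17 alternative settings, with an adjusted p of up to 0.680. DB#2, at -2.16, -2.60 and -2.41, differed from M by 0.59 (adjusted p = 0.0661) and lay 0.79 below D (log2 difference -0.79, adjusted p = 0.0072).

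Lower in D and some brain-site lines were chr7:111526943-111545093_R and chr10:24269317-24270145_R. The first stood at -2.75, -2.37 and -2.60 in M and at -4.37, -4.41 and -4.74 in DB#3, where it was not read, so DB#3 was at least 3.27-fold lower (means -4.51 and -2.57, adjusted p = 0.0156, lost under 5 of 17 alternatives). It differed by -1.96 in D (adjusted p = 0.0192) and by -1.63 in DB#1 (adjusted p = 0.0271), and DB#2 was 2.79 above D (adjusted p = 0.000401). The second was read on the M arrays at -3.36, -4.28 and -3.11 and on no fitted D array or DB#1 array. D was at least 1.44-fold (adjusted p = 0.0103, means -5.19 and -3.58) and DB#1 at least 1.70-fold lower (adjusted p = 0.00286, mean -5.21), while D replicate 3 read -2.28. The D call was lost under 6 of 17 alternatives, among them with D replicate 3 included, normexp and without M replicate 1 or 3 (adjusted p up to 0.646), and the DB#1 call under 4 of 18.

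Some members were called in a part of the brain-site lines, and never in all of them, against both M and D. The probe chr12:77550684-77551505_F was read on no fitted array of M, D or DB#1 and on D replicate 3 at -3.72. It was read at -1.35, -1.27 and -1.50 in DB#2 and at -2.19, -2.43 and -2.02 in DB#3. DB#2 was at least 7.56-fold higher than M (means -1.37 and -6.45, adjusted p = 1.32e-08) and at least 6.65-fold higher than D (adjusted p = 1.28e-07). DB#3 was at least 4.22-fold higher than M (mean -2.21, adjusted p = 1.31e-07) and at least 3.71-fold higher than D (adjusted p = 1.52e-05). The longer interval chr12:77544397-77564122_F, named here because it contains this one, was also called higher in DB#2 than in M on 1 of its 2 probes.

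On chromosome 6, chr6:100162756-100178531_F was not read in M (-5.35, -4.94 and -6.26). It stood at -2.34, -1.70, -0.75 and -1.68 in DB#1 and at -2.98, -1.33 and -2.07 in DB#2. All 3 DB#3 arrays read it as well, at a mean of -3.69, and DB#3 was not called against M or D. DB#1 was at least 6.37-fold and DB#2 at least 4.48-fold higher than M (means -1.62, -2.13 and -5.51, adjusted p = 1.16e-05 and 0.000154). Against D, where 1 fitted array read it, DB#1 was higher by 2.89 (adjusted p = 0.00197) and DB#2 by 2.39 (adjusted p = 0.00462). D replicate 3, at -2.13, lay within the range of DB#1.

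The probe chr4:88745770-88774130_R was read on no M array (-5.29, -5.76 and -5.09), on no fitted D array and on every array of the brain-site lines. By reading, though not by calls, it set all brain-site lines apart from M and D. DB#3 gave -2.22, -2.22 and -2.26, DB#2 -3.17, -3.24 and -3.45, and DB#1 -2.56, -3.35, -3.69 and -4.21. DB#3 was at least 4.17-fold (adjusted p = 1.12e-06), DB#2 at least 2.01-fold (0.000162) and DB#1 at least 1.79-fold (0.000175) higher than M, whose mean was -5.38 beside -2.23, -3.29 and -3.45. DB#3 was also at least 3.67-fold higher than D (mean -4.42, adjusted p = 0.000847). DB#2 was called higher than D as well (adjusted p = 0.0318, limma), and DB#1 was not called against D. D replicate 3 read it at -2.88.

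Against D, DB#1 differed at 1 of 1482 interval probes (0.0675%, background 0.483%, with 0.415% higher and 0.0679% lower), the chromosome 6 member above, which was higher. DB#3 differed at 3 of 1477, all higher (0.203%, background 0.349%, with 0.22% higher and 0.129% lower), and these were the members on chromosomes 3, 4 and 12 above. DB#2 differed from D at 46 of 1541, 18 higher and 28 lower (2.99%, background 5.67%, with 3.11% higher and 2.55% lower), and at 71 with slide as a block. These comparisons share the D arrays. The fitted D arrays read 29.0% to 46.0% of the interval probes, and the part of this spread in the counts was not tested.

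Among the DB#2 calls, 2 intervals were called on both strands, in the same direction on each. One was chr6:3333825-3349525, where the R probe was 1.43 ± 0.32 (SE) higher in DB#2 than in D (adjusted p = 0.00897) and the F probe at least 1.55-fold higher (means -3.48 and -5.11, adjusted p = 0.0462). The F call was lost under 12 of 17 alternatives, with an adjusted p of up to 0.402, and the R call under 3, so that a call on both strands depended on the setting. The R probe lay at -1.79, -1.39 and -1.24 in DB#2 and at -2.34, -2.87 and -3.49 in D. The lines did not overlap, which the naming rule required. Also higher was chr7:134643558-134644056_F, by 0.89 (adjusted p = 0.00721), and chr17:56687541-56694631_F was lower, by -1.77 (adjusted p = 0.0122), and each of these calls was lost under 3 of 17 alternatives.

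The myeloid lines were compared to ask how J365 differed from M0. Of 1674 interval probes, 23 were called, 13 higher and 10 lower in J365 (1.37%, background 1.98%, with 1% higher and 0.978% lower), and 39 with slide as a block. All 23 kept their direction on each slide, which was largely fixed in advance because the same arrays gave the calls. In bulk RNA, fewer cells that express an RNA and less of it per cell cannot be told apart.

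The probe chr11:97457180-97487074_F was read in J365 alone among the fitted arrays, at -1.34, -0.90 and -0.48, and on D replicate 3 at -0.91. It was at least 9.08-fold higher in J365 than in M0 (means -0.91 and -6.27, adjusted p = 5.67e-12). The other member read only in J365 was chr13:62364360-62381775_F, at -0.75, -0.55 and -0.44 and at -1.57 on D replicate 3. It was at least 11.3-fold higher (means -0.58 and -4.27, adjusted p = 1.33e-10).

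The short interval chr2:168136389-168136560_R, 172 bases long, was read in both myeloid lines. M0 gave 0.59, 0.22, 0.14 and 0.19 and J365 gave 4.55, 4.72 and 4.66. The lines were far apart relative to their spread, with a difference of 4.36 ± 0.39 (SE, adjusted p = 2.58e-07) and per-slide differences of 4.16 to 4.58. The probe chr12:77550684-77551505_F, which marked DB#2 and DB#3 among the melanoma lines, also differed here. M0 gave -3.09, -3.29, -3.64 and -3.77 and J365 -0.79, -0.97 and -0.93, a rise of 2.55 ± 0.33 (SE, adjusted p = 4.67e-05).

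On chromosome 13, 3 intervals of strand F between positions 98267049 and 98285757 were all called lower in J365. At chr13:98270713-98272269_F, M0 stood at -0.95, -1.06, -1.72 and -1.75 and J365 at -3.91, -3.82 and -3.74, a difference of -2.45 ± 0.27 (SE, adjusted p = 4.63e-06). Next to it, chr13:98281158-98285757_F was read in M0 alone among the fitted arrays, at -3.16, -3.49, -3.32 and -2.97, and J365 was at least 1.99-fold lower (means -6.38 and -3.24, adjusted p = 1.09e-09). No fitted melanoma array read these neighbours, while D replicate 3 read them at -2.59 and -1.78.

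Further lower members in J365 were chr8:122945743-122946192_F and chr9:14460976-14488051_F. The first gave -2.30, -1.36, -1.75 and -1.13 in M0 and was not read in J365, which was at least 6.04-fold lower (means -5.68 and -1.64, adjusted p = 1.66e-08). The second was bright in every line, with 5.36, 6.18, 6.06 and 5.67 in M0 and 3.60, 3.81 and 3.98 in J365, a difference of -2.02 ± 0.17 (SE, adjusted p = 8.44e-08). Its melanoma line means, lowest in DB#2 at 4.54, lay between the myeloid ones.

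The widest comparison set the mean of the 5 melanoma lines against that of the 2 myeloid lines. Of 1909 interval probes, 1082 were called, 353 higher in melanoma and 729 lower. That was 56.7%, against a background of 75.2% and 79.6% of coding probes. Over all probes tested 36.2% were higher and 39% lower. The median difference was -0.26 over the interval probes and -0.08 over all probes on the log2 scale. On slides 1, 2 and 3 alone, 1076, 1075 and 1079 of the 1082 kept their direction, again on the arrays that gave the calls. Of the called members, 525 were read on every array of both types. Cell type and every other difference in origin or handling of these lines cannot be told apart.

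The member with the largest bound was chr9:78107225-78118850_F, whose signal spanned 5.06 to 6.50, with a median of 5.57, on the 16 fitted melanoma arrays and was not read on any myeloid array. Melanoma was at least 965-fold higher (means 5.75 and -6.33, adjusted p = 6.93e-25), and D replicate 3 gave 4.78. An overlapping interval of the same strand, chr9:78104935-78116974_F, spanned 4.68 to 6.19 in melanoma and was read in J365 (-3.47, -3.82 and -3.71) and not in M0. The overlap means that these probes may read the same transcript. Within melanoma both were lower in DB#1 and DB#3 than in M. The first fell by 0.88 in DB#1 (adjusted p = 0.00873) and by 0.84 in DB#3 (adjusted p = 0.025), and the second by 0.95 (adjusted p = 0.0112) and by 0.90 (adjusted p = 0.0337). Both DB#3 calls were lost under 8 of 17 alternatives, a replicate block and leaving out M replicate 1 or 3 among them. The DB#1 calls were lost under 2 and 4 of 18.

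Also read in melanoma only was chr13:58474388-58487288_R, with 2.88 to 3.65 (median 3.18) in melanoma. It was at least 164-fold higher there (means 3.20 and -4.89, adjusted p = 1.15e-20). In the other direction, chr6:129151512-129208737_R was read on every myeloid array (0.56 to 2.37, median 1.57) and on no melanoma array of the fit, at least 50.5-fold lower in melanoma (means -6.53 and 1.36, adjusted p = 4.75e-19). The probe chr17:27479404-27481770_F, at 0.31 to 1.27 (median 0.89) in myeloid arrays, was at least 34.8-fold lower (means -5.58 and 0.82, adjusted p = 3.81e-14).

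Among members read on every array of both types, chr2:181663381-181664097_F was highest in melanoma relative to myeloid lines. It gave 6.18 to 6.72 (median 6.49) in melanoma and -1.23 to 0.84 (median 0.26) in myeloid arrays, a difference of 6.49 ± 0.21 (SE, adjusted p = 1.9e-16). The interval chr2:181650800-181669350_R encloses it on the opposite strand and differed in the opposite direction, with -3.31 to -2.46 in melanoma and -0.33 to 1.48 in myeloid arrays (difference -3.50 ± 0.18, adjusted p = 4.44e-13). The probe chr12:52950465-52950990_R was 5.29 ± 0.22 higher in melanoma (4.86 to 5.64 against -1.33 to 0.94, adjusted p = 1.82e-14). The probe chr7:16633756-16634410_F was lower by -4.69 ± 0.13 (-2.04 to -1.29 against 2.41 to 3.72, adjusted p = 2.72e-17).

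Of 241 intervals tested on both strands in this comparison, 81 were called on both, of which 61 had strands that moved alike and 20 had strands that moved oppositely. Called in the same direction were chr6:31233512-31241062 (3.56 on F and 2.32 on R, the R probe read on 1 of 7 myeloid arrays) and chr6:47595238-47601893 (-2.58 and -2.22). At chr8:26343277-26352902, also called higher in melanoma on both strands, no myeloid array read either probe. The R probe was at least 5.76-fold higher in melanoma (means -1.63 and -5.18, adjusted p = 2.67e-09). The F probe was read on 15 of the 16 melanoma arrays (-4.56 to -1.76, adjusted p = 2.78e-09) and is given without a fold. Of 105 names with several tested probes, 87 had the same sign on all of them here. In the other comparisons the share of such names was 61.3% to 77.2%, so probes of 1 interval often disagreed where most differences were small.

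One bright member followed the slide within melanoma. The probe chr1:64686823-64728598_F gave 0.62 to 0.90 on the melanoma arrays of slide 1 and 2.53 to 3.07 on those of the other slides, and 2.36 on D replicate 3. All melanoma arrays lay above the myeloid range of -3.31 to -2.05. Its difference between the types was 4.53 ± 0.39 (SE, adjusted p = 2.15e-09).

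By position, called members seldom lay close together among the melanoma lines. Within 1 Mb of each other there was 1 run of called members in D against M, the chromosome 16 pair, and 2 runs each in DB#1 and DB#3 against M, the same chromosome 16 intervals and the overlapping chromosome 9 pair. DB#2 against M had 1 run, on chromosome 12. DB#2 against D had 4 runs and J365 against M0 had 2. Every one of these runs moved in 1 direction. Overlapping or nested intervals, as on chromosomes 9 and 12, may read the same transcript. Between the cell types there were 205 runs with 783 members, and 97 of these runs moved in 1 direction. With 1082 of 1909 tested members called there, many runs follow from the number of calls alone. No count of runs over other probes is given beside these.

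Chromosome medians in D against M were lowest on chromosome 10 for interval probes (-0.42) and for gene probes (-0.25, with 0.05 to 0.13 on the other chromosomes). In DB#1 the chromosome 10 medians were -0.06 for interval probes and -0.29 for gene probes, in DB#3 -0.09 and -0.26, and in DB#2 against D 0.34 and 0.34. Between the cell types the interval medians lay from -0.41 on chromosome 15 to -0.13 on chromosome 6. Chromosome 6 had the highest gene probe median, 0.84, and 36 of its 126 interval probes were called higher and 37 lower. These medians are descriptions over probes and were not tested.

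**Figure D5:**
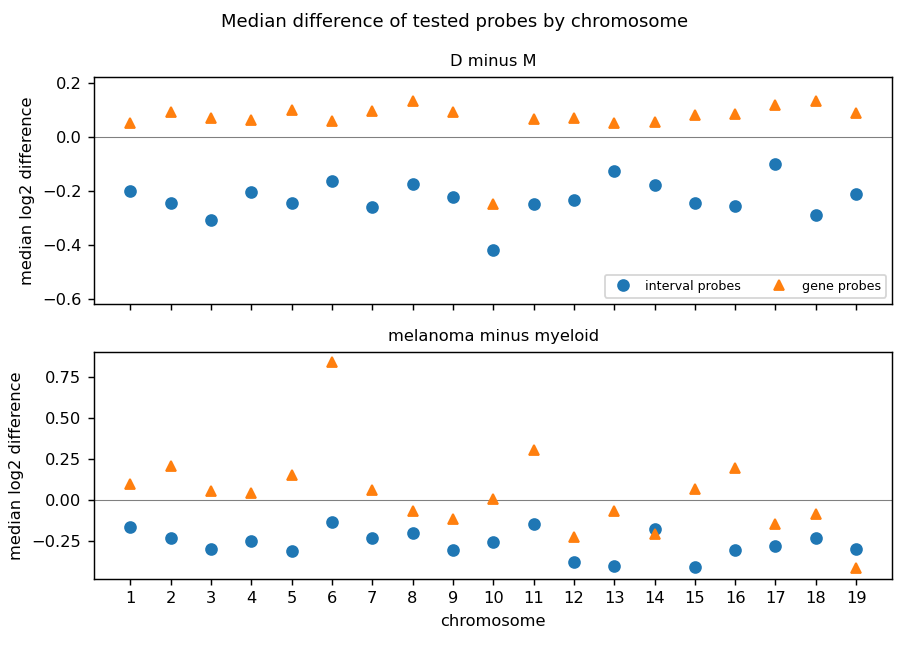
Median log2 difference on each of chromosomes 1 to 19 for interval probes and for gene probes in D against M and in melanoma against myeloid lines. In D against M both medians are lowest on chromosome 10, at -0.42 and -0.25; between the cell types the gene probe median is highest on chromosome 6, at 0.84, where the interval probe median is -0.13.

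Long non-coding RNA genes with a symbol were taken from a list for comparison. Of 44 listed, 34 were on the array and 22 to 23 were tested in a comparison. Among the comparisons of single lines, Snhg5, a host gene of small nucleolar RNAs, was the only one called. It was higher than in M by 1.06 in D (adjusted p = 0.000368), by 0.89 in DB#1 (0.000616) and by 0.80 in DB#3 (0.00427), and was 0.91 lower in DB#2 than in D (difference -0.91, adjusted p = 0.000939). Between the cell types 20 of 23 tested were called, 5 higher and 15 lower in melanoma, where 75.2% of all probes were called. The higher ones were Peg13 (4.97), an imprinted transcript, Dleu2 (1.00), Oip5os1 (0.88), Airn (0.84) and Mir22hg (0.42). Among the lower ones were the small nucleolar RNA hosts Snhg8 (-2.36), Snhg5 (-2.25), Snhg12 (-2.06) and Snhg1 (-1.94), and Pvt1 (-1.45), a neighbour of Myc.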

How the data were processed

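Total RNA of 7 mouse cell lines was labelled for single-colour Agilent arrays of 62976 spots, 1 sample per array and 24 arrays in all. The authors deposited, per array, intensity values on a linear scale from Agilent Feature Extraction 10.7.3.1 (gProcessedSignal, background-corrected, not scaled between arrays). A series table of theirs held the same 1511424 intensity values. The array design names build mm9. No non-control spot was saturated, and the number of arrays limits the precision.

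Spots of a probe were averaged after outlier spots were left out, and log2 intensity less the 75th percentile of the array was analysed. All lines entered 1 model in limma 3.58.1 (R 4.3.3) without D replicate 3, on 23 arrays with 16 residual degrees of freedom. A probe was tested if well above background on every fitted array of at least 1 line compared. Adjustment of p-values followed Benjamini and Hochberg over all probes tested in a comparison, and the fit was tested on simulated data. Shares of probes read were compared by exact permutation of arrays. M0 and J365 arrays without a number in their title are called replicate 4.

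The interval probes, the long non-coding RNA and marker lists and the rules were chosen with earlier results of these data known. Members were chosen for naming if they had the 2 largest rises or falls in a comparison among called members read throughout without overlap, the largest bounds (up to 2 a direction), the widest range of line means (6), calls in the most comparisons, presence in 1 line only or calls on both strands. Not every member so chosen is described above. In DB#2 against M the first rule gave chr8:124364048-124365705_F, chr5:149947200-149979950_F, chr17:17315025-17460175_R and chr17:22422837-22451777_R. Those calls were lost under 12, 9, 13 and 13 of 17 alternatives. In D against M chr7:113768215-113783490_R, also left out, was lost under 7 of 17. Members on chromosome 18 were counted and not named. Gene chromosomes came from RefSeq names (GRCm38.p6), with no coordinates.

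Same-numbered arrays of DB#1 and M deviated together (correlations 0.593, 0.533 and 0.886). The main fit did not use this pairing, which entered only as a replicate block among the alternatives. Both pairs of DB#2 and D (0.142 and 0.718) and the only pair of DB#3 and D (0.811) were also positive. In each of the other comparisons at least 1 pair was negative. Alternatives covered D replicate 3, scaling, normexp background correction (offset 50, on the median signal), the filter, slide and replicate blocks, the arrays fitted, 1 probe per name and leaving out each array. The study's methods name software and no test for the arrays.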

Additional observations from a re-analysis of the deposited data

Results flagged for a closer look

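Whether D differed from M in another way than J365 from M0 was tested as the difference of the 2 differences (limma), on the log2 scale. It passed an adjusted p of 0.05 at 16 of the 47 members examined by name. The naming rules used the same arrays, the largest changes among them, so this count was partly fixed in advance. No share over all probes is given beside it, and it does not describe interval probes in general. It was positive at chr16:23543837-23560153_F (5.17), chr8:122945743-122946192_F (3.64), chr16:23534663-23535172_F (3.48), chr13:98281158-98285757_F (3.19), chr10:120058696-120076196_R (2.91), chr14:43408099-43415349_F (2.90), chr13:98270713-98272269_F (2.69), chr7:13533925-13544525_F (2.53), chr8:124364048-124365705_F (2.20), chr9:14460976-14488051_F (2.00) and chr3:93564825-93576725_F (1.57). It was negative at chr11:97457180-97487074_F (-5.08), chr2:168136389-168136560_R (-3.82), chr13:62364360-62381775_F (-3.67), chr6:40693617-40720167_F (-1.95) and chr9:78104935-78116974_F (-1.52). Members not read on 1 side enter with their floor values, so these sizes are no bounds.

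Single arrays stood apart from the other 3 of their line at 8 of 67 groups of 4 arrays examined, where chance gives about 1 in 20. DB#1 replicate 1 was high at chr16:23534663-23535172_F (-1.04) and at chr6:3333825-3349525_R (-2.22). DB#1 replicate 3, the only array of its line on slide 1, was at -1.76 and -0.79 on strands F and R of chr8:26343277-26352902 and at 0.62 at chr1:64686823-64728598_F. M0 replicate 4 stood at 0.59 at chr2:168136389-168136560_R and at 0.23 at chr16:3337275-3355950_F, and M0 replicate 1 at -3.44 at chr6:3333825-3349525_R.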

How the results depend on the processing

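Of 172 recomputed counts of called members, 128 lay within 1.5 times the value given above. Of 62 pairs of a named member and a comparison in which it was called, 15 were called under every alternative, 47 were lost under at least 1 and none changed direction (0 pairs). Testing only probes read on every array of all lines compared, which leaves fewer probes, gave 7 called members in D against M, 13 in DB#1, 3 in DB#2 and 8 in DB#3 against M, 0, 20 and 1 in DB#1, DB#2 and DB#3 against D, 10 in J365 against M0 and 536 between the cell types. The 0 stands beside 17 of 1183 tested members with an unadjusted p under 0.05 (limma). With slide as a block the counts were 36 (24 higher, 12 lower), 45 (25 and 20) and 36 (18 and 18) in D, DB#1 and DB#2 against M, 2 and 71 (29 and 42) in DB#1 and DB#2 against D and 39 (23 and 16) in J365 against M0. Fitting only the arrays of the lines compared gave 6 in D and 10 in DB#2 against M and 15 in J365. Against D it gave 14 in DB#2 and 0 in DB#3, with 27 of 1477 tested members at an unadjusted p under 0.05 (limma). This share and the 17 of 1183 above both lie below the 0.05 expected if no tested member differed. With D replicate 3 included, 9 were called in DB#2 against M and 12 in J365 against M0.

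Scaling moved the DB#2 count against M to 32 (19 higher, 13 lower) with quantile normalization and normexp moved it to 12. The 75th percentile over probes read on every array gave 2 calls in DB#1 against D and splits of 16 higher and 9 lower in D, 17 and 16 in DB#1 and 12 and 10 in DB#2 against M. Quantile normalization gave 20 and 7 in D. Without scaling the splits were 25 and 2 in DB#2 and 10 and 8 in DB#3 against M, 24 and 13 in DB#2 against D and 22 and 8 in J365, while the median of all probes moved by 0.23 in DB#2 against M, 0.21 in DB#2 against D, 0.15 in J365 and 0.12 between the cell types. The causes of these moves were not tested.

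With a replicate block the DB#1 count against M was 32, a comparison in which all same-numbered arrays deviated clearly together. The only such pair of DB#3 and D did so as well. The other counts against M were 29 in D, 20 in DB#2 and 12 in DB#3. Against D they were 1, 55 and 2 in DB#1, DB#2 and DB#3, with 16 in J365 and 1073 between the cell types.

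Leaving out 1 array at a time gave 11 to 21 calls in D, 17 to 27 in DB#1, 7 to 14 in DB#2 and 11 to 17 in DB#3 against M. The ranges were 1 to 4, 24 to 54 and 2 to 4 for DB#1, DB#2 and DB#3 against D, 16 to 24 for J365 and 1038 to 1137 between the cell types. Single arrays moved counts by over 1.5 times. In D against M these were M replicates 1, 2 and 3 (13, 11 and 13 without them) and D replicate 2 (11). In DB#1 against M it was M replicate 2 (17), in DB#2 against M they were M replicates 2 and 3 (9 and 7) and DB#2 replicates 1, 2 and 3 (10, 10 and 13), and in DB#3 against M they were M replicates 2 and 3 and DB#3 replicate 5 (12, 11 and 11). Against D they were D replicates 2 and 4 and DB#1 replicate 3 for DB#1 (2, 4 and 2), and D replicate 2 and DB#2 replicate 3 for DB#2 (27 and 24).

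The difference in the share of interval probes read between melanoma and myeloid arrays ranged from -3.87 to -2.14 percentage points when 1 array was left out, and it was 0.0142 with D replicate 3 and -3.31 on slide 2 alone. Values near the floor of the scanner software have no order, and a member not read may still be transcribed below the level that the array can show.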
